A study of Mus musculus with 7 samples.

Results

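The 8 genes described here make and process the lipids of the skin barrier: the epidermal lipoxygenase genes Alox12b, Aloxe3 and Alox12e, and Abca12, Pnpla1, Sdr9c7, Cyp4f39 and Nipal4. They were chosen by name, and all 8 were found among the 56691 genes of the count table. All 8 had counts in each of the 7 libraries, and all 8 passed the filter on low counts that left 12888 genes for testing. Skin came from 3 Tuft1 knockout mice (mice 2, 3 and 4), taken where it looked healthy, and from 4 wild-type mice (mice 5, 6, 7 and 8), with 1 library per mouse. The labels give no age, sex, strain, body site or allele, and no treatment. Tuft1 encodes tuftelin 1. The samples were whole pieces of skin, so fewer cells of a type and less RNA per cell cannot be told apart.

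The outermost epidermis is sealed by lipids, among them acylceramides, whose very long fatty acid carries linoleic acid at its far end. Cytochrome P450 enzymes hydroxylate that fatty acid, a transacylase adds the linoleate, a transporter loads lipids into lamellar granules, and lipoxygenases then oxidize the linoleate so that the ceramide can be bound to proteins of the cornified envelope. Loss of most human counterparts of these genes causes recessive ichthyosis, a disorder of dry, scaling skin with a leaking barrier.

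None of the 8 genes was called between knockout and wild-type skin. The adjusted p was 1.00 for each of the 8 in edgeR's quasi-likelihood test over all genes, 0 had an unadjusted p under 0.05, and DESeq2 and limma-voom also called 0 of the 8. In the whole comparison 3 genes were called, which is 0.0233% of those tested (0.0155% higher and 0.00776% lower in knockout skin). Levels of the 2 groups overlapped for every one of the 8. Of all tested genes 6.89% were separated without overlap (3.44% higher and 3.45% lower in knockout skin). At that share, 0 of 8 separated does not set these genes apart. The fitted log2 fold changes, knockout over wild type, ran from -1.62 for Nipal4 to 0.80 for Cyp4f39, with 3 above 0, 5 below 0 and a median of -0.25. Over all tested genes the median was -0.0098.

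Libraries held 7009237 to 9256459 counts, so 1 count stood for 0.108 to 0.132 CPM (counts scaled to a common library size, with TMM factors). Values by mouse are given in the order of the mouse numbers, 2, 3 and 4 for knockouts and 5, 6, 7 and 8 for wild types. Tags were read near the 3' end of transcripts, which gives about the same number of tags per transcript whatever its length, so CPM was also used to compare levels between genes. Tuft1 stood at 22.1 ± 6.23 CPM over knockouts (SD, n = 3) against 94.9 ± 26.6 CPM over wild types (SD, n = 4), without overlap (adjusted p = 0.172, edgeR). Tuft1 was called by DESeq2 (adjusted p = 8.60e-06) and by edgeR without a filter on low counts (9.24e-04), and not by limma-voom (0.234). The labels do not say which bases of the gene were removed. Nothing in the labels says that mice were littermates or were handled together, and the p-values measure the spread between these mice.

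Alox12e was the most abundant of the 8 and Cyp4f39 the least abundant in wild-type skin. Wild-type means ran, from high to low, Alox12e, Aloxe3, Alox12b, Sdr9c7, Abca12, Pnpla1, Nipal4 and Cyp4f39. Only the first step of this order was free of overlap between wild-type mice, with an Alox12e mean 2.53-fold that of Aloxe3. Aloxe3 exceeded Alox12b within each of the 7 libraries, and Abca12 exceeded Pnpla1 within each of the 7, although their ranges over wild-type mice overlapped. Alox12b, Sdr9c7 and Abca12 were not set apart by the spread between mice, nor were Nipal4 and Cyp4f39.

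Cyp4f39 is the mouse counterpart of human CYP4F22, the enzyme that hydroxylates the far end of the very long fatty acid. It lies on the plus strand of chromosome 17 at 32671697 to 32712294 (mm39, as are the other gene positions given from the count table). It stood at 12.6, 16.9 and 23.3 CPM among knockouts, against 20.2, 9.004, 2.45 and 8.54 CPM among wild types. The highest value was that of knockout mouse 4 and the lowest that of wild-type mouse 7, and wild-type mouse 5 lay among the knockout mice. The means were 17.6 ± 5.39 CPM over knockouts (SD, n = 3) against 10.1 ± 7.41 CPM over wild types (SD, n = 4), a log2 fold change of 0.80 (SE 1.06). The 95% interval of the fold, not adjusted for the number of genes, ran from 0.355 to 8.60. Without wild-type mouse 5 the log2 fold change was 1.40, and without wild-type mouse 7 it was 0.48.

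Pnpla1 encodes the transacylase that moves linoleate onto the hydroxylated ceramide. The gene spans 29077385 to 29109283 on the plus strand of chromosome 17, and its exons overlap those of an antisense gene, Pnpla1os, that had 0 counts. Pnpla1 stood at 26.9, 31.1 and 33.8 CPM among knockouts, against 27.5, 7.77, 48.5 and 23.3 CPM among wild types. The knockout mice lay close together inside the wild-type range, whose ends were wild-type mice 6 and 7. The coefficient of variation was 11.3% in knockout and 62.8% in wild-type skin, and the difference in spread was not tested. The log2 fold change was 0.20 (SE 0.65), and the 95% interval of the fold ran from 0.433 to 3.03.

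Abca12 encodes the transporter that loads glucosylceramides into lamellar granules. It is a minus-strand gene of chromosome 1 at 71281435 to 71454069 and is the longest of the 8 genes. It stood at 80.0, 90.8 and 38.8 CPM among knockouts, against 33.6, 43.6, 98.6 and 102.6 CPM among wild types. Both groups held high and low mice: knockout mouse 4 and wild-type mice 5 and 6 were at 43.6 CPM or under, and the other 4 at 80.0 CPM or above. The means were 69.9 ± 27.5 CPM (SD, n = 3) and 69.6 ± 36.1 CPM (SD, n = 4), with a log2 fold change of 0.0068 (SE 0.45). The 95% interval of the fold ran from 0.510 to 1.98. The estimate depended on single mice, at -0.23 (SE 0.52) without knockout mouse 3 and 0.29 (SE 0.47) without knockout mouse 4.

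**Figure D1:**
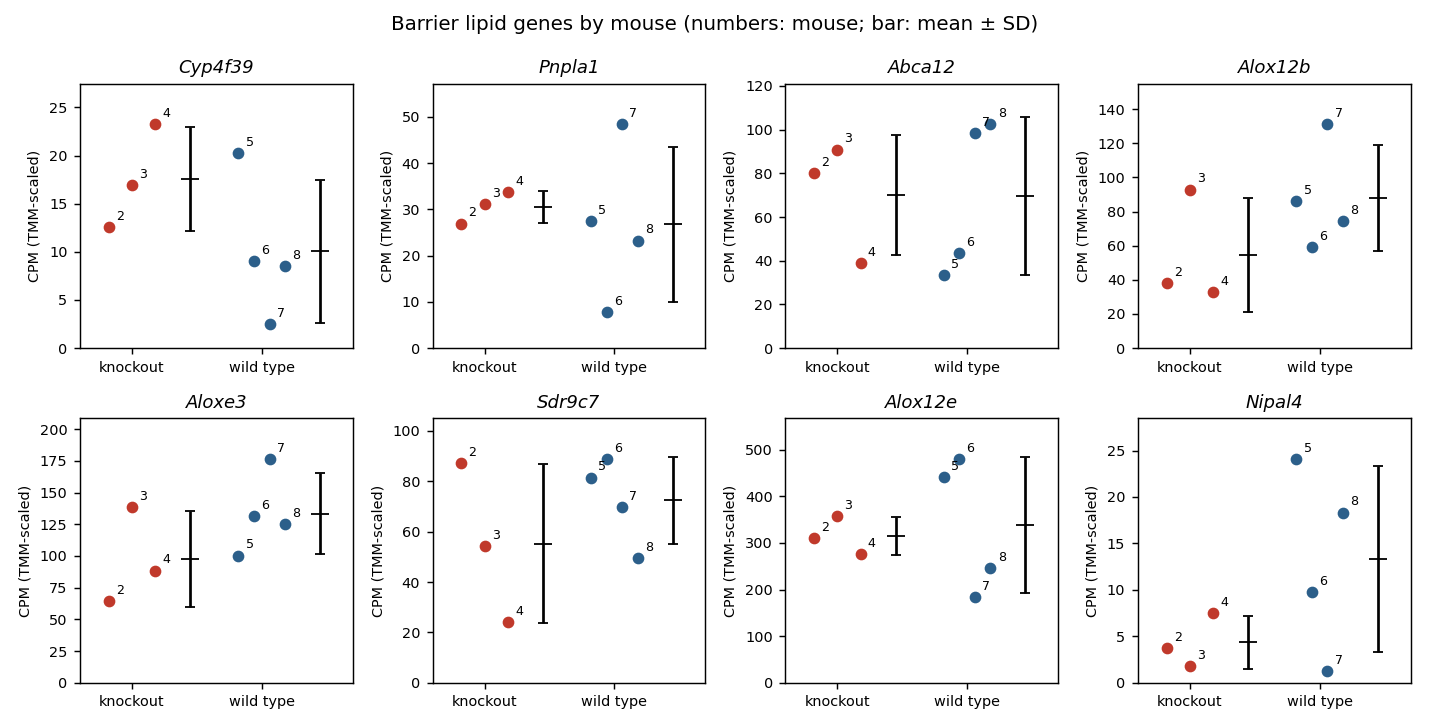
Level of each of the 8 genes in CPM (vertical axes, linear from 0) in 3 knockout mice (red) and 4 wild-type mice (blue), numbered by mouse, with the mean and SD as black bars. The groups overlap in every panel, and for Abca12, Alox12e, Pnpla1 and Nipal4 the knockout mice lie inside the wild-type range.

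Alox12b and Aloxe3 encode the lipoxygenases that act in turn on the linoleate of acylceramides, Alox12b making the hydroperoxide and Aloxe3 turning it into an epoxy alcohol. The genes are neighbours on the plus strand of chromosome 11, Aloxe3 at 69016722 to 69039941 and Alox12b at 69047815 to 69060618, with 7873 bases between them. Alox12b stood at 38.3, 92.9 and 32.6 CPM among knockouts, against 86.2, 59.1, 131 and 74.4 CPM among wild types. Knockout mice 2 and 4 lay below all 4 wild-type mice, and knockout mouse 3 lay above 3 of them. The log2 fold change was -0.68 (SE 0.42), with a 95% interval of the fold from 0.330 to 1.17. Without knockout mouse 3 it was -1.31 and still not called.

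Aloxe3 stood at 64.7, 139 and 88.5 CPM among knockouts, against 100.3, 132, 177 and 125 CPM among wild types. As with Alox12b, knockout mice 2 and 4 lay below the 4 wild-type mice and knockout mouse 3 lay above 3 of them. The log2 fold change was -0.45 (SE 0.31), with a 95% interval of the fold from 0.456 to 1.17. Alox12b and Aloxe3 had the most alike profiles of the 28 pairs among the 8 genes, with a root-mean-square difference of 0.39 between their log2 CPM once each was centred on its own mean over the 7 libraries. The Alox12b level was 0.592, 0.669 and 0.368 of the Aloxe3 level in knockout mice 2, 3 and 4, and 0.859, 0.449, 0.744 and 0.596 of it in wild-type mice 5, 6, 7 and 8. These ratios overlapped between the groups.

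Sdr9c7 encodes a short-chain dehydrogenase that oxidizes the epoxy alcohol made by the lipoxygenases. It lies on the plus strand of chromosome 10 at 127734387 to 127747630. Its levels were 87.2, 54.1 and 24.2 CPM among knockouts, against 81.4, 88.9, 69.6 and 49.5 CPM among wild types. Knockout mouse 4 was the lowest of the 7, and knockout mouse 2 was the highest but for wild-type mouse 6. The log2 fold change was -0.39 (SE 0.43), with a 95% interval of the fold from 0.403 to 1.44. It was -0.04 without knockout mouse 4 and -0.89 without knockout mouse 2.

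Alox12e encodes the mouse epidermal arachidonate lipoxygenase, and is a minus-strand gene of chromosome 11 at 70206436 to 70213454, in a second group of lipoxygenase genes that also holds Alox12 and Alox15. It stood at 311, 358 and 276 CPM among knockouts, against 442, 481, 184 and 246 CPM among wild types. The 3 knockout mice lay between the 2 high and the 2 low wild-type mice. The means were 315 ± 40.8 CPM (SD, n = 3) and 338 ± 145 CPM (SD, n = 4), with a log2 fold change of -0.10 (SE 0.31). With libraries scaled to keratinocyte genes the sign turned, at 0.037. The 95% interval of the fold ran from 0.585 to 1.48. Alox12e made up 25.9% of the summed CPM of the 8 genes in wild-type mouse 7, and 38.0% to 57.9% in the other 6 libraries.

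Nipal4 encodes ichthyin, a membrane protein related to magnesium transporters. It is a minus-strand gene of chromosome 11 at 46038982 to 46057335, far from both lipoxygenase groups. Its tags numbered 29, 16 and 57 among knockouts, against 224, 87, 10 and 148 among wild types. Wild-type mouse 7 was the lowest of the 7, while the other 3 wild-type mice lay above all knockout mice. The means were 4.35 ± 2.90 CPM (SD, n = 3) and 13.4 ± 10.004 CPM (SD, n = 4), with a log2 fold change of -1.62 (SE 1.496). The 95% interval of the fold, 0.0347 to 3.06, is on the log scale the widest of the 8. Without knockout mouse 4 the log2 fold change was -2.27, and without wild-type mouse 5 it was -1.17.

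**Figure D2:**
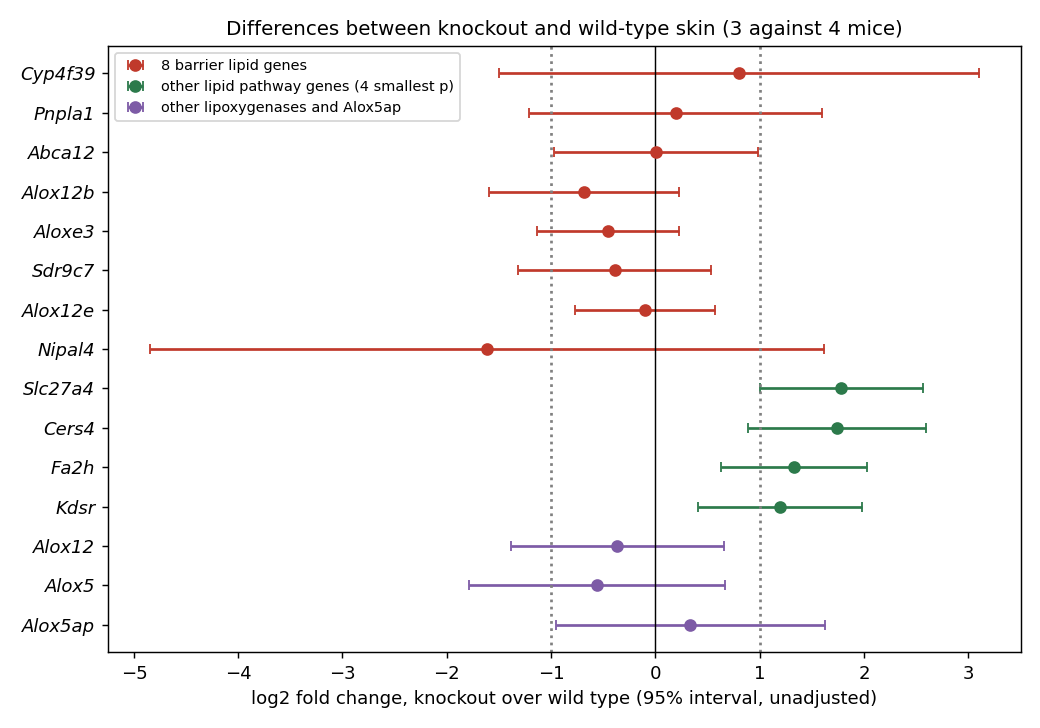
Log2 fold changes, knockout over wild type (horizontal axis), with unadjusted 95% intervals for the 8 genes (red), the 4 other lipid pathway genes with the smallest p (green) and Alox12, Alox5 and Alox5ap (purple). Dotted lines mark a 2-fold change, and all 8 red intervals cross 0.

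Among these 8 genes, the mouse most often at an end of the range was of the wild type. Wild-type mouse 7 had the highest level of Alox12b, Aloxe3 and Pnpla1 and the lowest level of Alox12e, Cyp4f39 and Nipal4. Knockout mouse 4 was the highest in Cyp4f39 and the lowest in Alox12b and Sdr9c7. No library but wild-type mouse 7 was at an end of the range for more than 3 of the 8 genes. The share of all tested genes with this library at an end is not given here. The count is therefore not shown to be particular to these 8 genes. Over the 7 libraries the SD of log2 CPM was 0.48 for Aloxe3 and Alox12e, 0.66 to 0.81 for Sdr9c7, Abca12, Alox12b and Pnpla1, 1.06 for Cyp4f39 and 1.54 for Nipal4. The median SD was 0.62 over the 7622 tested genes with an average log2 CPM of at least 4, a level that Cyp4f39 and Nipal4 did not reach. The summed CPM of the 8 genes was 625, 784 and 525 in knockout mice 2, 3 and 4 and 815, 831, 713 and 647 in wild-type mice 5, 6, 7 and 8, which overlap.

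**Figure D3:**
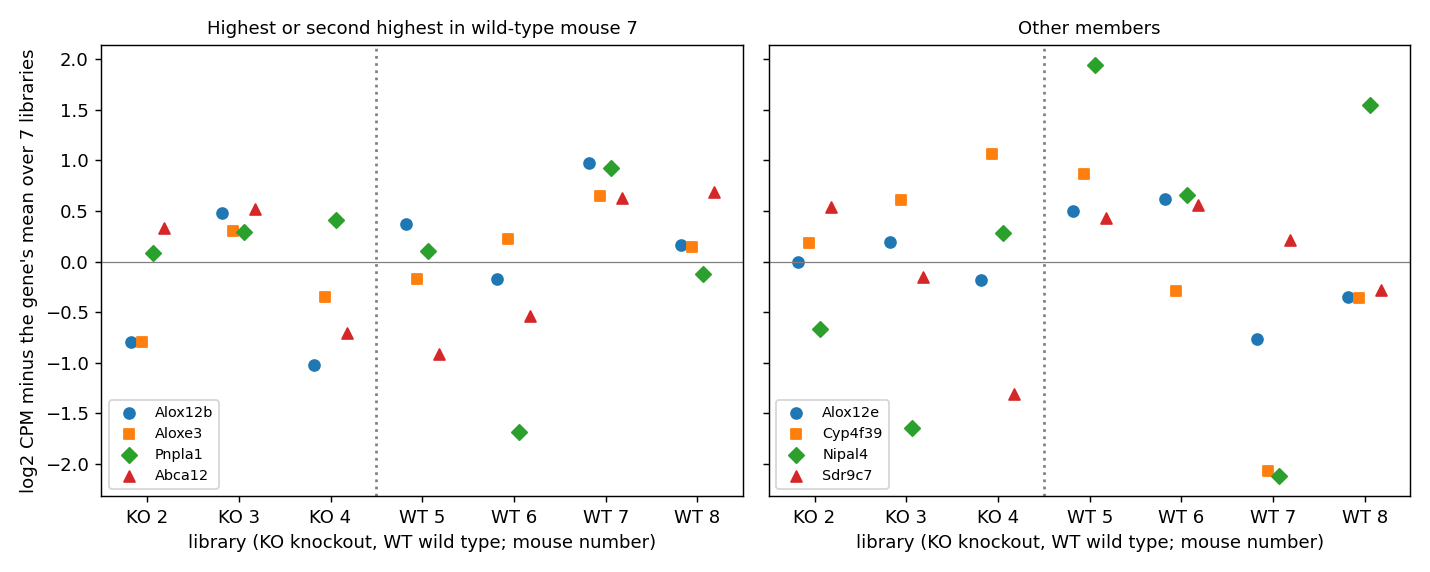
Log2 CPM of each gene minus its mean over the 7 libraries (vertical axis) by library (horizontal axis, knockout left of the dotted line). The left panel holds Alox12b, Aloxe3, Pnpla1 and Abca12, the genes highest or second highest in wild-type mouse 7. Their place above their means in that mouse is set by this choice. In the right panel Sdr9c7 is also above its mean in wild-type mouse 7, while Alox12e, Cyp4f39 and Nipal4 are below theirs.

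The bases before the starts of the genes were searched for motifs chosen with these windows already seen. RefSeq (GRCm38.p6) gave a window for 7 of the 8 genes, all but Aloxe3, and the 250 bases before the start were searched on both strands for 8 motifs. The motif GGGNGTGG, bound by factors of the KLF family such as the barrier regulator Klf4, was in the windows of Pnpla1, Cyp4f39 and Alox12b, and in 15.9% of 32851 windows of that length. These 3 windows are shown because they hold this motif. Pnpla1 and Alox12b were highest and Cyp4f39 was lowest in wild-type mouse 7. Alox12e and Nipal4, whose windows lack the motif, were also lowest in that mouse. A link between the motif and the levels was not tested. Letters in capitals are matches to a searched motif, here GGGNGTGG or GGGCGG (the GC box) on either strand, and none of these matches overlap.
Pnpla1: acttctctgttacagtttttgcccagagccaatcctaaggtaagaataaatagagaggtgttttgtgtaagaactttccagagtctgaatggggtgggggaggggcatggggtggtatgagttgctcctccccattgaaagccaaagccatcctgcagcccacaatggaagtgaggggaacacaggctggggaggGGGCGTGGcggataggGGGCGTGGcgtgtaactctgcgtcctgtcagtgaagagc
Cyp4f39: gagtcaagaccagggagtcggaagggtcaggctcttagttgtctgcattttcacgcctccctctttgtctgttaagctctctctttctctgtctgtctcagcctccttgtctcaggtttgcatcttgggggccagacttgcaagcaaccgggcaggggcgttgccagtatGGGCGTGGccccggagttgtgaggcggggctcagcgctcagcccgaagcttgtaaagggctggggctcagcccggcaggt
Alox12b: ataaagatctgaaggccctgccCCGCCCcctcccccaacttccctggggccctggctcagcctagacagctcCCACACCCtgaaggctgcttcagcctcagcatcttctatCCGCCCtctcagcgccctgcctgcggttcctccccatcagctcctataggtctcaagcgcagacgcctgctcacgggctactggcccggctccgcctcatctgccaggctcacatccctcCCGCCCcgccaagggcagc
The windows are chr17:28858161-28858410, chr17:32452473-32452722 and chr11:69156822-69157071, all on the plus strand of GRCm38.p6, which is not the build of the count table. Pnpla1 holds 2 copies of GGGCGTGG, at 55 to 48 and 39 to 32 bases before the start, and Cyp4f39 holds 1 at 80 to 73 bases. Alox12b holds 1 match on the opposite strand and 3 GC boxes. GC boxes were in 3 of the 7 windows (Alox12b, Alox12e and Nipal4) and in 32.7% of all windows. TTGCNNAA, a C/EBP motif, was found in Nipal4 and in 9.56% of all windows, and the TATA box TATAAA in Sdr9c7 and in 12.4%. The AP-1 motif TGANTCA was in 0 of the 7 windows and in 6.75% of all windows. The grainyhead motif AACNGGTT was likewise in 0 of the 7 and in 1.79% of all. The GATA motif AGATAA, in 9.99% of all windows, and the PPAR direct repeat, in 0.0335%, were also in 0 of the 7. A match is only a run of letters, and these windows say nothing of whether a factor is bound.

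The other genes of acylceramide synthesis and of the lipid envelope were counted from a list of 43 symbols, of which 37 were tested. None was called over all genes by edgeR's quasi-likelihood test, 20 lay above 0 and 17 below, and the median log2 fold change was 0.09. In this list 8 genes had an unadjusted p under 0.05, as did 555 of the 12888 genes tested (4.31%). DESeq2 called 2 of the list and 125 of all genes, and limma-voom 2 and 22. With the filter on low counts left off, edgeR called Slc27a4, Cers4 and Fa2h, 3 in all. The groups did not overlap for 8 of the 37, against 6.89% of all tested genes, with 4 higher and 4 lower in knockout skin. The summed CPM of the list was 4347 to 5551 CPM over knockouts against 3948 to 4191 CPM over wild types, without overlap. Abundant genes weigh most in this sum, and 17 of the 37 tested lay below 0. Elovl4, Fa2h and Cers4 averaged 824, 485 and 337 CPM over knockouts against 558, 194 and 100 CPM over wild types. Acsl1 and Elovl1 went the other way, at 230 and 260 CPM over knockouts against 350 and 322 CPM over wild types. The 4 genes lower without overlap were Acsl1, Ugcg, Hacd1 and Lipk. Ugcg averaged 91.9 CPM over knockouts against 153 CPM over wild types, and Hacd1 18.2 CPM against 33.1 CPM. Lipk had 0, 14 and 0 counts among knockouts, and 18 to 183 counts among wild types.

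The 4 pathway genes with the smallest p all had fold changes above 0. Slc27a4, which encodes a fatty acid transport protein whose loss causes ichthyosis with prematurity, stood at 121, 94.1 and 266 CPM among knockouts, against 54.0, 50.2, 46.0 and 35.8 CPM among wild types. All 3 knockout mice lay above every wild-type level. The log2 fold change was 1.79 (SE 0.36, edgeR adjusted p = 0.254). DESeq2 called it (adjusted p = 2.51e-04), limma-voom did not (0.106), and over all alternatives the adjusted p ran from 1.97e-04 without a filter on low counts to 1.00 without knockout mouse 4.

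Cers4, a ceramide synthase of hair follicle and sebaceous gland, stood at 148, 438 and 424 CPM among knockouts, against 102, 51.3, 95.9 and 152 CPM among wild types. Knockout mouse 2 lay within the wild-type range, and the log2 fold change was 1.74 (SE 0.40, edgeR adjusted p = 0.371). Cers4 was called by limma-voom (adjusted p = 0.0273) and not by DESeq2 (0.0860). Fa2h, which makes the 2-hydroxy fatty acids of sebum and epidermis, stood at 285, 590.3 and 581 CPM among knockouts, against 154, 115, 256 and 250.003 CPM among wild types. Its groups did not overlap, and the log2 fold change was 1.33 (SE 0.32, edgeR adjusted p = 0.503). DESeq2 (adjusted p = 0.00265), limma-voom (0.0251) and unfiltered edgeR (2.16e-04) called Fa2h, and with 1 mouse left out edgeR's adjusted p was 0.160 to 1.00. Kdsr, an enzyme of the first steps of sphingolipid synthesis, stood at 58.1, 88.6 and 92.9 CPM among knockouts, against 42.2, 40.6, 28.2 and 28.2 CPM among wild types. Its groups did not overlap either, and its log2 fold change stood at 1.20 (SE 0.36), with an adjusted p of 0.793 in edgeR. Whether these genes differ from the 8 barrier genes in their response was not tested.

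Genes that the sebaceous gland also uses lie in that list, and sebaceous markers are given beside it. Of all 12888 tested genes 555 (4.31%) had an unadjusted p under 0.05 with edgeR, and DESeq2 called 125 and limma-voom 22. Of 17 tested sebaceous genes, 14 had log2 fold changes above 0 with a median of 0.66. Of the 17, edgeR called 0 (6 at an unadjusted p under 0.05), DESeq2 2 and limma-voom 1. Their summed CPM was 3574 to 6265 CPM over knockouts against 4152 to 4873 CPM over wild types, and the 20 listed hair follicle genes of the table summed to 606 to 1269 CPM over knockouts against 211 to 416 CPM over wild types. The part of sebaceous gland and hair follicle content in the pathway values was not tested.

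The list of other lipoxygenase genes held Alox5, Alox8, Alox12 and Alox15, and Alox5ap, which encodes the activating protein of 5-lipoxygenase. All but Alox15 were tested, and 0 were called by edgeR, DESeq2 or limma-voom (0 at an unadjusted p under 0.05). Alox12, the platelet-type enzyme, stood at 35.95 ± 19.7 CPM over knockouts (SD, n = 3) against 46.3 ± 3.28 CPM over wild types (SD, n = 4), and Alox5, which starts leukotriene synthesis in white blood cells, at 23.4 ± 6.47 CPM and 34.5 ± 11.99 CPM. Alox8, the lipoxygenase gene that follows Alox12b on chromosome 11, had 9 counts in knockout mouse 4, 58 in wild-type mouse 5 and 16 in wild-type mouse 6, and 0 in the other 4 libraries. Alox15 had 60 counts in knockout mouse 2 and 0 in the other 6. Alox12e stood above the other listed lipoxygenase genes, Alox12b and Aloxe3 included, in each of the 7 libraries.

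Relatives of the other members were not called by edgeR either, in 15 tested of 30 listed (3 at an unadjusted p under 0.05, 1 by DESeq2 and 0 by limma-voom). The matching counts over all 12888 tested genes were 555, 125 and 22. Pnpla2, the lipase of fat droplets and a relative of Pnpla1, was called by DESeq2, at 162 ± 29.2 CPM over knockouts against 313 ± 59.9 CPM over wild types. Abca5, a relative of Abca12, averaged 54.3 ± 9.31 CPM against 103 ± 21.9 CPM, without overlap. Pnpla5 stood at 49.4 ± 20.5 CPM and 14.998 ± 7.14 CPM, again without overlap (log2 fold change 1.72, SE 0.63, edgeR adjusted p = 1.00). Nipal3, a relative of Nipal4, stood at 30.8 ± 4.11 CPM over knockouts against 16.8 ± 13.03 CPM over wild types, with overlap. Pnpla2 is also a fat cell gene, and the 12 listed fat cell genes summed to 8564 to 10695 CPM over knockouts against 15566 to 24041 CPM over wild types. The part of fat content in the Pnpla2 value was not tested.

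Transcription factors known from barrier formation and lipid metabolism were not called by edgeR, DESeq2 or limma-voom, in 19 tested of 20 listed. Unadjusted p was under 0.05 for 3 with edgeR, 4 with DESeq2 and 4 with limma-voom. It was so for 555, 952 and 845 of all 12888 tested genes. With edgeR 4 of the 19 factors had log2 fold changes above 0 and 15 below, with a median of -0.25. Cebpa, a factor of keratinocyte differentiation and of fat cells, stood at 107 ± 8.38 CPM over knockouts (SD, n = 3) against 166 ± 12.2 CPM over wild types (SD, n = 4), without overlap. Pparg, a receptor that drives fat cell formation and had the smallest p of the list, averaged 36.2 ± 9.88 CPM against 81.5 ± 14.4 CPM, also without overlap. The part of fat content in the Pparg and Cebpa values was not tested. Maf lay the other way, at 464 ± 44.1 CPM over knockouts against 315 ± 43.3 CPM over wild types, without overlap. Ppard, a receptor for fatty acids, stood at 35.98, 3.81 and 24.5 CPM among knockouts, against 65.8, 29.9, 79.2 and 45.05 CPM among wild types, with overlap.

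Markers of the upper, suprabasal keratinocytes are given beside the 8 genes. Which cells of the skin the RNA of the 8 came from was not measured. All 30 suprabasal markers of the table had counts, and they did not all lie on one side. Lce1m, a late cornified envelope gene, averaged 834 ± 206 CPM over knockouts against 1632 ± 276 CPM over wild types, and Flg, the filaggrin gene, 146 ± 20.8 CPM against 68.5 ± 15.3 CPM. Neither gene's groups overlapped, and DESeq2 called both. The summed CPM of the markers was 21208 to 31333 CPM over knockouts against 31988 to 40797 CPM over wild types, without overlap, and was highest in wild-type mouse 7 and lowest in knockout mouse 4. In wild-type mouse 7 Alox12b, Aloxe3 and Pnpla1 were at their highest, and Alox12e, Cyp4f39 and Nipal4 at their lowest. The part of the suprabasal marker level in the values of the 8 genes was not tested. Of 29 tested markers, 8 had log2 fold changes above 0 and 21 below, with a median of -0.37. EdgeR called 0 of the 29 (6 at an unadjusted p under 0.05), DESeq2 2 and limma-voom 1. Over all 12888 tested genes, 555 had an unadjusted p under 0.05 with edgeR, DESeq2 called 125 and limma-voom 22. For 11 basal keratinocyte markers the sum was 8414 to 11997 CPM over knockouts against 7749 to 10536 CPM over wild types. When libraries were scaled to 37 keratinocyte genes in place of all genes, the median log2 fold change of the 8 genes was -0.11 and 0 of the 8 were called, while the median of all tested genes shifted by 0.15.

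Genes whose levels lay closest to the mean of 6 of the 8, Cyp4f39 and Nipal4 left out, were looked for. The search covered 7616 other genes with an average log2 CPM of at least 4. The measure was the root-mean-square difference of centred log2 CPM over the 7 libraries from the mean of the 6 members at that level. The third closest was a predicted gene model and is not named. The others among the 9 closest were Plekha5, Tars, Gnaq, Chmp2a, Adipor2, Prkag1, Vezf1 and Smdt1, at 0.07 to 0.13. The 6 members themselves lay farther from their own mean, from 0.33 for Aloxe3 to 0.70 for Pnpla1. The named genes were picked as the closest of 7616, so their smaller distances are set by that choice.

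**Figure D4:**
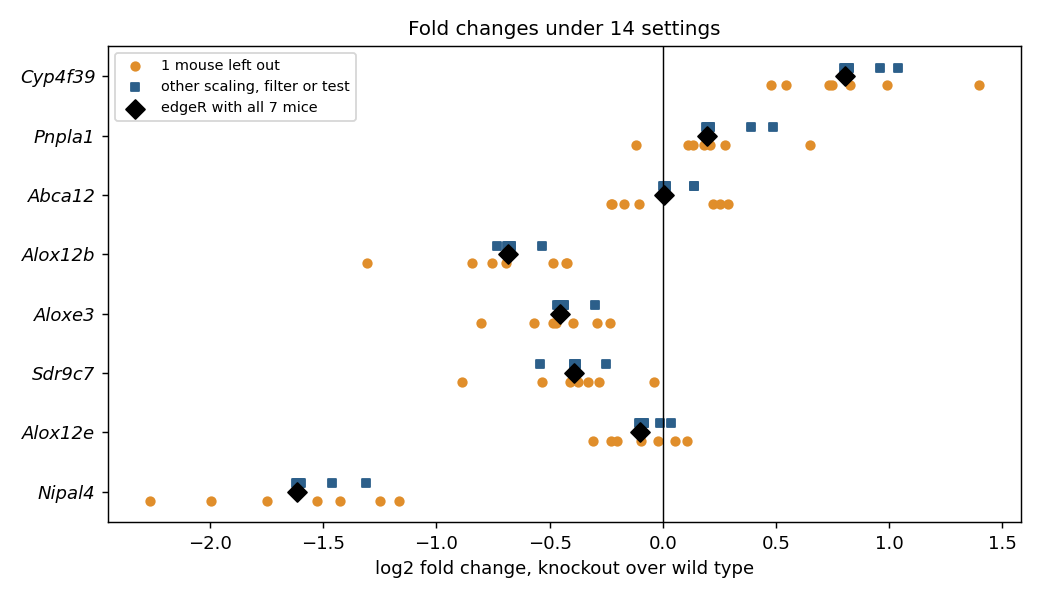
Log2 fold change of each of the 8 genes, knockout over wild type (horizontal axis), with all 7 mice in edgeR (black), with another scaling, filter or test (blue) and with 1 mouse left out (orange). Points of Pnpla1, Abca12 and Alox12e lie on both sides of 0, and those of the other 5 genes keep to one side.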

How the data were processed

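RNA of 7 skin samples was extracted with TRIzol and made into QuantSeq 3' libraries, per the labels' protocols. The authors deposited whole-number counts per gene. Tools listed in the submitters' processing notes, without roles, are featureCounts, STAR, edgeR 3.36.0, Subread 2.0.3 and GATK 4.2.4.0, with mm39 as the build. No source used here states the use of strand. A second table deposited by the authors holds log2 values for 12954 genes; edgeR's log2 CPM (TMM, prior count 2) gave all 90678 back within 1e-09, and it served only as an alternative gene set. Groups came from the titles.

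Counts were analysed in edgeR 4.0.16 (R 4.3.3): expression filter at a minimum of 10 counts, TMM factors, quasi-likelihood F test of knockout over wild type, Benjamini-Hochberg adjustment over 12888 genes and a threshold of 0.05. Standard errors come from the F statistic, and 95% intervals from the matching t quantiles. Levels are mean ± SD. The members and gene lists were chosen with earlier results of these data known, so no list was tested as a set. The rule for named genes took the 8 members, Tuft1, up to 6 called genes and the 4 with the smallest p of each list, of which not all are printed, and the 8 genes nearest in profile, predicted gene models left out. Genes named beyond the rule were chosen after their values were seen. These are Alox15, Pnpla1os and Klf4, and of the pathway list Elovl4, Elovl1, Acsl1, Ugcg, Hacd1, Lipk and Sgms2. Alternatives used DESeq2 1.42.0, limma-voom 3.58.1, other scalings and filters, and 1 mouse left out. On simulated data for this comparison (11666 genes run), 6.82% of genes changed 2-fold, 19.0% changed 4-fold and 50% changed 8-fold were called.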

Additional observations from a re-analysis of the deposited data

Results flagged for a closer look

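The 8 barrier genes, Tuft1 and 4 pathway genes were checked for a wild-type mouse far from the other 3. Of these 13 genes 1 was flagged, where chance would give about 0.65 for 13 unselected, independent genes, so 1 flag is near that number. It is only a rough guide, since the 13 share the same 4 wild-type mice and the 4 pathway genes were chosen by small p. On the log2 CPM scale wild-type mouse 7 had a Tuft1 level of 5.80, and the others lay between 6.70 and 6.84. This gap was 0.869 of the group's range, past Dixon's 95% critical value. Wild-type mouse 7 was also the library with the highest or lowest level of 6 of the 8 barrier genes, with no share over all genes to set beside it.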

How the results depend on the processing

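In all 13 alternatives 0 of the 8 genes were called, and their median log2 fold change was -0.36 to -0.03 with 1 mouse left out. Of 104 values for single genes, 8 had the opposite sign. With 1 mouse left out the log2 fold change of Abca12 ran from -0.23 to 0.29, that of Alox12e from -0.31 to 0.11 and that of Pnpla1 from -0.12 to 0.65; scaled to keratinocyte genes, Alox12e was at 0.037. Over all genes edgeR called 76 without a filter on low counts (with 3 pathway genes), DESeq2 called 125 and limma-voom 22 (2 pathway genes each), and edgeR called 0 to 1 with 1 mouse left out (0 without wild-type mouse 5, 6 or 7), with 432 to 847 genes at an unadjusted p under 0.05. The cause of these differences was not tested. The 8 genes named for a like profile were the same with a prior count of 0.5. No paired analysis was possible because the labels do not say which mice were littermates or handled together. Of the 8 genes depth limits Nipal4 and Cyp4f39 most, at 10 and 20 counts in wild-type mouse 7. Over the libraries 3 counts stand for 0.323 to 0.395 CPM, and this covers counting error only. The common biological coefficient of variation in edgeR was 107.7%. Sgms2 of the pathway list had 0 counts in wild-type mouse 7 and 171 to 236 in the other wild-type mice. With 1 library per mouse, spread between mice and between libraries cannot be told apart. Whether duplicate tags were removed is not stated.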
